A study of Mus musculus with 9 samples.

Results

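The genes described are the SR proteins and the heterogeneous nuclear ribonucleoproteins (hnRNPs), taken as every row of the count table whose symbol is Srsf followed by a number or begins with Hnrnp. These are 31 of 24421 rows, 11 Srsf genes and 20 Hnrnp genes. SR proteins carry RNA recognition motifs and a tail of arginine and serine repeats; they bind exonic enhancers, recruit the splicing machinery and are switched by phosphorylation of that tail. The hnRNPs coat nascent transcripts, often silence splice sites that SR proteins promote, and also act in RNA export, stability and translation. Levels of both families are kept in balance in part by their own splicing, since many of these genes hold an exon whose inclusion sends the transcript to nonsense-mediated decay.

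RNA was sequenced from SB28, a mouse glioma line carrying GFP and luciferase, after growth in the brain of C57BL/6 mice that were 6 to 8 weeks old at implantation. The 9 libraries form 3 groups of 3. Control mice received vehicle and were killed at day 21, and BAL101553 mice received the oral prodrug of a spindle checkpoint controller and were killed at day 33 or 35, as Results and Methods of the study differ, to match tumor volume. Treatment and day of harvest therefore cannot be told apart. The tumor cells were described as sorted CD45-CD11b-GFP+ cells, whereas the labels of both groups read whole tissue. The third group is labelled astrocytes, from BAL101553-treated C57BL/6 mice, and is not described in the text of the study, so the sort and day of these cells are not given in the sources used here. SB28 is a single cell line, and 2 ex vivo samples per group are stated where the table holds 3. The data statement of the study names another deposit, so its treatment, harvest days and sort are taken to apply to these libraries. The study calls its 2 samples per group biological replicates, but nothing says whether the 3 libraries per group here came from separate mice. The p-values therefore measure the spread between libraries, which may be technical.

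Each library held between 22919523 and 34013875 counts. In the libraries labelled astrocytes, 8 astrocyte markers (among them Aqp4, Slc1a2 and Gfap) summed to between 12000 and 14700 CPM (counts scaled to the size of each library by TMM), against 940 to 972 in control and 681 to 797 in BAL101553 tumors, where Gja1 and Aldh1l1 alone exceeded 10 CPM in every library. The same libraries also held 6 oligodendrocyte markers at 10300 to 12700 CPM, against 15.3 to 20.6 in the tumor libraries, and 10 microglial and macrophage markers at 493 to 1070 CPM, against 2.24 to 5.11. Libraries labelled astrocytes thus held the defining markers of 3 glial cell types. Summed markers of neurons were at 16.8 to 76.0 CPM in the tumor libraries, with Rbfox3 at 0 in all 6, and at 14.1 to 16.6 CPM in the libraries labelled astrocytes. Markers of endothelium were at 736 to 861 CPM in control and 516 to 645 in BAL101553 tumors, most of it Cdh5 and Flt1. Between the tumor groups Cdh5 (-0.52, adjusted p = 0.0195), Gja1 (-0.37, adjusted p = 0.0363) and P2ry12 (-1.88, adjusted p = 0.0313) were called lower. Slc1a3 (1.57, adjusted p = 0.0403) was called higher. P2ry12 (9 to 60 counts per tumor library) and Slc1a3 (13 to 75) rest on low counts. Csf1r, another microglial marker, was at 0.63 and not called. With single libraries left out, a microglial marker was called lower only without control 2 and an astrocyte marker higher only without BAL101553 1. An astrocyte marker was called lower only without BAL101553 1 or BAL101553 2. An endothelial one was called lower only without BAL101553 1, BAL101553 2 or control 2. The part of these markers in the comparison of BAL101553 with control was not tested. Libraries of sorted or mixed cells are bulk samples, in which fewer cells of a type and less RNA per cell cannot be told apart.

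The stretches of DNA just upstream of 4 members are shown because 3 of them, Hnrnph1, Hnrnph3 and Hnrnpa1, were the members called higher in BAL101553 tumors, and Hnrnph2 is the close paralog of Hnrnph1 that was not. Each runs over the 200 bases before a RefSeq transcription start on GRCm38.p6, the patch release of mm10, 5′ to 3′ on the strand of the gene. Hnrnph1 has 5 listed starts, of which the one at its annotated gene start was taken, and the window of Hnrnph3 lies inside its GENCODE gene model, which begins farther upstream. The windows are chr11:50376790-50376989 on the plus strand for Hnrnph1, chr10:63023850-63024049 on the minus strand for Hnrnph3, chr15:103240197-103240396 on the plus strand for Hnrnpa1 and chrX:134600979-134601178 on the plus strand for Hnrnph2. Capitals mark matches, on either strand, to the GC box (GGGCGG), the CCAAT box (CCAAT), the TATA box (TATAAA), the ETS core (CCGGAAG) and the NRF1 core (GCGCA and GCGC with any 1 base between).
Hnrnph1: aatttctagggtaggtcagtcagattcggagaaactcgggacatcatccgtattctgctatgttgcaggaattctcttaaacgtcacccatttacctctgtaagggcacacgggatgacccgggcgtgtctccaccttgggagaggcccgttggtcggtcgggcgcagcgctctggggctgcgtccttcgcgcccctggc
Hnrnph3: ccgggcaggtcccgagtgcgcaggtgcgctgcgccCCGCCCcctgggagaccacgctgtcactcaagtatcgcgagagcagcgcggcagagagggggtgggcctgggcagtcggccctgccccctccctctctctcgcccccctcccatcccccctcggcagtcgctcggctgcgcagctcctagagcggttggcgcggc
Hnrnpa1: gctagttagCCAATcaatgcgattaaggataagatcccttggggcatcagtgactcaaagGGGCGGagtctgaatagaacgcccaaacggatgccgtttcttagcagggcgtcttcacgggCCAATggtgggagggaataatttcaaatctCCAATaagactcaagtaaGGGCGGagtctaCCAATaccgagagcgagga
Hnrnph2: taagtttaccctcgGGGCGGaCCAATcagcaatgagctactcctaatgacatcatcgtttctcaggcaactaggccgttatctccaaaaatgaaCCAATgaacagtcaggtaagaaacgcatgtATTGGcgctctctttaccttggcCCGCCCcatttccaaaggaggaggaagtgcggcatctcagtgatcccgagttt
The Hnrnph1 window held none of the 5 motifs and that of Hnrnph3 held 1 GC box. Hnrnpa1 had 4 CCAAT boxes and 2 GC boxes, and Hnrnph2 had 3 CCAAT boxes and 2 GC boxes. Across RefSeq promoters of 300 bases, 29 of the 31 members matched with 41 promoters. A GC box occurred in 82.9% of these, against 35.7% of all 32851 promoters and 62.8% of the 12297 promoters of genes tested between control and BAL101553. The CCAAT box occurred in 51.2% of member promoters, 37.4% of all and 37.8% of those tested. The ETS core was in 24.4% against 8.9% and 17.0%, the NRF1 core in 19.5% against 4.6% and 9.8%, and the TATA box in 9.8% against 13.6% and 7.2%. Such matches are letters in a window and not evidence of binding.

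Levels were compared between genes as CPM per kb of exon, using the union of exons of each gene in GENCODE vM21. In control tumors, Hnrnpf, a binder of guanine-rich RNA, had the highest level at 219 ± 4.84 CPM per kb (SD, n = 3). Hnrnpab, an hnRNP of the A/B group, followed at 176 ± 11.2, and Hnrnpk, which binds cytosine-rich RNA, at 131 ± 1.15 CPM per kb. These neighbours differed by more than their SDs, but with the longest transcript as length Hnrnpk (286 CPM per kb) stood above Hnrnpf (278) and Hnrnpab (207). The lowest levels per length were those of Hnrnpa1, at 2.21 ± 0.276 CPM per kb, and of Srsf12, which had 1 count in 1 of 3 control libraries. In the libraries labelled astrocytes the order changed: Hnrnpa2b1 was at 76.1 ± 2.29, Srsf5 at 70.5 ± 3.31 and Hnrnpf at 67.3 ± 3.62 CPM per kb, of which Srsf5 and Hnrnpf did not differ beyond their SDs. With the longest transcript as length, Hnrnpa2b1 and Hnrnpk were both at 138 CPM per kb, Hnrnpf at 85.4 and Srsf5 at 80.8. Hnrnpa1 codes for one of the most abundant nuclear proteins, yet 46.7% of the 50-base windows in its exons also occur in other genes, 20 of them, all pseudogenes, so its count is uncertain. More than 20% of windows were shared in 10 of the 31 members, Srsf4 (65.4%) and Hnrnpf (61.9%) most, whereas 7 members shared none, Hnrnph1 shared 4.42% and Hnrnph3 2.69%.

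**Figure D1:**
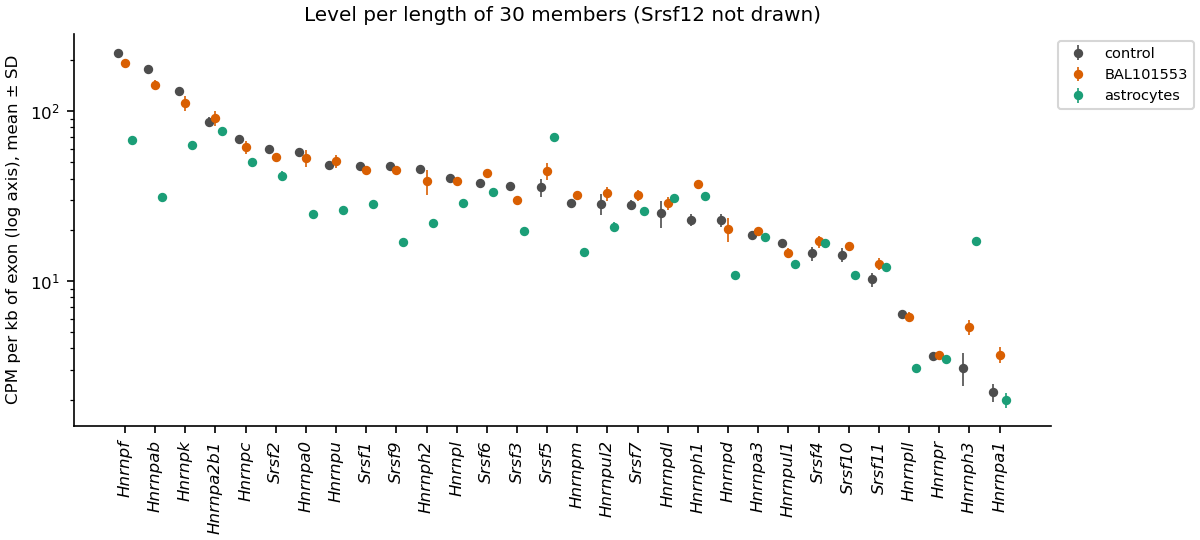
Level per length of 30 members as CPM per kb of exon on a log axis, mean ± SD of 3 libraries per group, ordered by the level in control. Hnrnpf leads in both tumor groups, and Hnrnph3, at 3.09 CPM per kb in control, stands at 17.2 in the libraries labelled astrocytes.

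Summed over all members, the 2 families took up 6767 ± 157 CPM in control tumors, 6597 ± 280 in BAL101553 tumors and 4355 ± 37.8 in the libraries labelled astrocytes (SD, n = 3 each). The tumor groups overlapped, and all 3 astrocyte libraries lay below all tumor libraries. The Srsf genes held 1473 ± 32.4, 1503 ± 48.0 and 1242 ± 15.5 CPM in these groups and the Hnrnp genes 5294 ± 159, 5094 ± 232 and 3112 ± 23 CPM, so that most of the lower sum lay in the Hnrnp genes. As a share of all counts, without TMM, the Srsf genes took 0.134%, 0.146% and 0.140%, so that their order between control and the libraries labelled astrocytes turned, and the Hnrnp genes took 0.483%, 0.494% and 0.352%.

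The first comparison asked which members differed in tumors of BAL101553-treated mice. Between BAL101553 and control, 3 members were higher and none was lower among the 30 that passed the filter on low counts (edgeR quasi-likelihood test, Benjamini-Hochberg adjusted p under 0.05 over 12633 genes). The 3 are Hnrnph1, Hnrnph3 and Hnrnpa1, all hnRNPs. They are 3 of 30 members, where 14.7% of all genes tested were called, 8.64% higher and 6.09% lower, so the count of members is near what that share would give. Of the 30, 16 fold changes were above 0 and 14 below, with a median of 0.05 on the log2 scale beside 0.02 for all genes. At an unadjusted p under 0.05 there were 6 higher and 2 lower members, and DESeq2 called 3 higher and 2 lower. The remaining 27 members lay between -0.31 and 0.33 on the log2 scale. Libraries of the groups did not overlap for 8 members that were higher and 7 that were lower, and overlapped for 16 of the 31. Over all genes tested, 20.1% were higher and 19.6% lower without overlap. Scaling by library totals in place of TMM turned the split of all genes called from 58.7% higher to 77.4% higher and added Srsf11 to the members called higher.

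**Figure D2:**
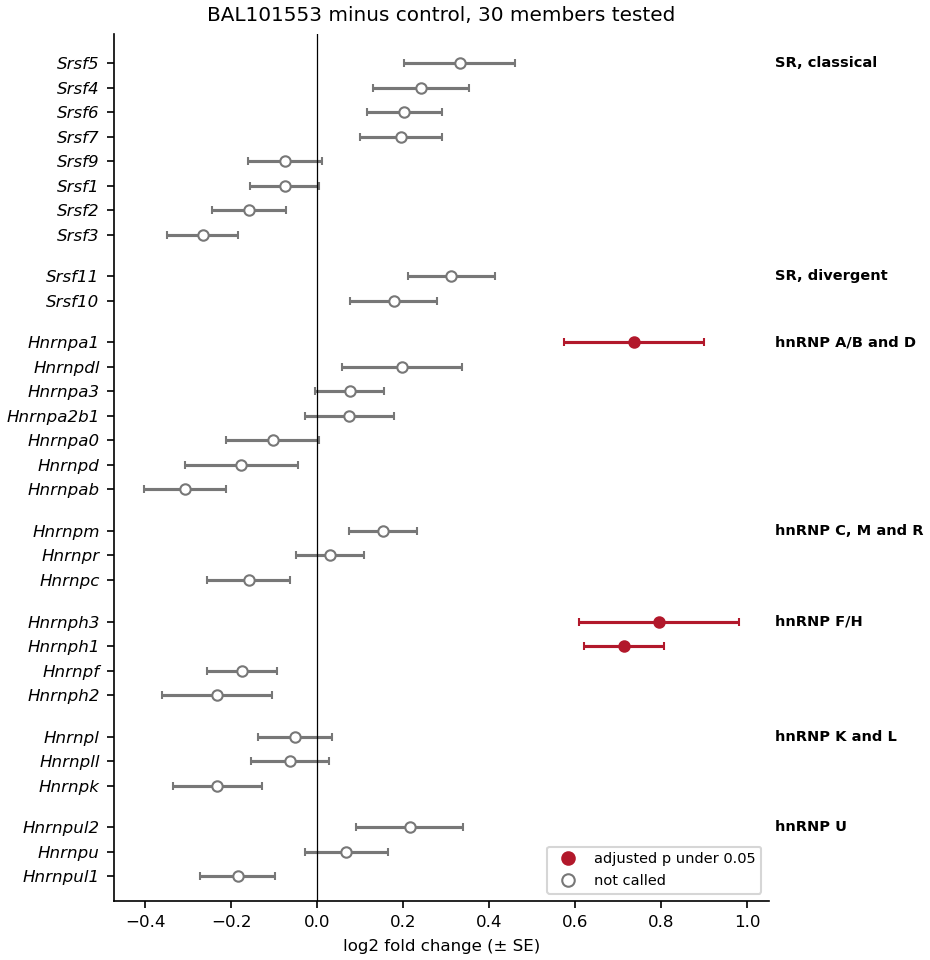
Log2 fold change of BAL101553 over control with its SE for the 30 members tested, grouped by subfamily; filled points passed an adjusted p of 0.05. Hnrnph1, Hnrnph3 and Hnrnpa1 stand between 0.71 and 0.79, and the other 27 members between -0.31 and 0.33.

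Hnrnph1 encodes a splicing regulator that binds runs of guanines and lies on chromosome 11 from 50376990 to 50386528 of mm10, on the plus strand. Its level was 138, 122 and 141 CPM in control libraries 1 to 3 and 229, 215 and 211 CPM in BAL101553 libraries 1 to 3. Every BAL101553 library was above every control library, with a log2 fold change of 0.71 (SE 0.093, adjusted p = 0.00751). The call held without each of the 6 libraries in turn, with adjusted p between 0.0132 and 0.0399. The libraries labelled astrocytes, at 183, 187 and 180 CPM, lay between both tumor groups.

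Hnrnph3, a shorter relative of Hnrnph1 on chromosome 10 (63014664 to 63024217, minus strand), was read at 7.27, 10.8 and 11.1 CPM in control and at 14.9, 17.0 and 18.4 CPM in BAL101553 tumors. Groups did not overlap, and the log2 fold change was 0.79 (SE 0.186, adjusted p = 0.0313). The call was lost without control 1 (adjusted p = 0.0710), control 2 (0.0539), control 3 (0.0807), BAL101553 2 (0.0515) or BAL101553 3 (0.0894). It held only without BAL101553 1 (0.0478).

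For Hnrnpa1, a silencer of exons on chromosome 15 (103240432 to 103246692, plus strand), control libraries held 5.97, 7.35 and 7.58 CPM and BAL101553 libraries 11.4, 10.5 and 12.9 CPM. All BAL101553 libraries were above all control libraries (log2 fold change 0.74, SE 0.162, adjusted p = 0.0267). Without control 1 (adjusted p = 0.0837), control 2 (0.0558), control 3 (0.0825), BAL101553 1 (0.0572) or BAL101553 3 (0.0769) the call was lost, and without BAL101553 2 it held (0.0305). Reads of Hnrnpa1 and of its pseudogenes may be split in a way that the sources used here do not give.

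The other members of the hnRNP F/H family were not called. Hnrnph2, the X-linked paralog of Hnrnph1, was at 205, 203 and 190 CPM in control and 161, 200 and 146 CPM in BAL101553 tumors. The groups overlapped through BAL101553 2, and the log2 fold change was -0.23 (SE 0.127, adjusted p = 0.234). Without BAL101553 2 it was called lower (-0.38, adjusted p = 0.0451). Hnrnpf was at 655, 684 and 663 CPM in control and 587, 604 and 574 CPM after BAL101553, a fold change of -0.18 (SE 0.0819, adjusted p = 0.172) that did not pass although its libraries did not overlap. The ratio of Hnrnph1 to Hnrnph2 within each library, which does not depend on scaling and was chosen after the values were seen, was 0.671, 0.601 and 0.745 in control, 1.43, 1.08 and 1.44 in BAL101553 tumors, and 1.96, 1.93 and 1.90 in the libraries labelled astrocytes. BAL101553 exceeded control by 0.96 on the log2 scale, and a two-sided exact permutation test gave p = 0.1, the smallest that 3 against 3 libraries allow.

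**Figure D3:**
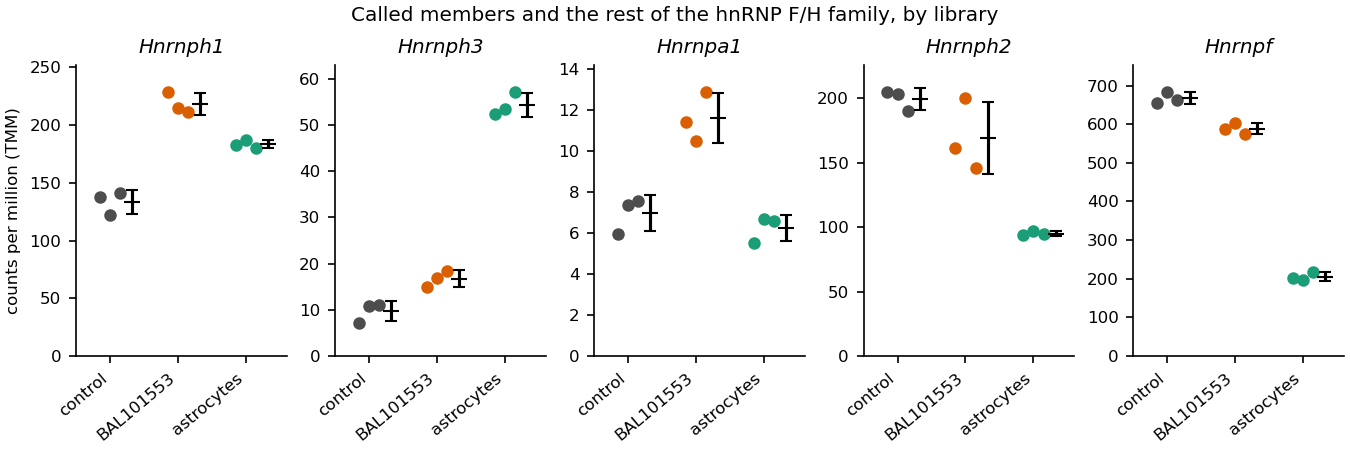
CPM of Hnrnph1, Hnrnph3, Hnrnpa1, Hnrnph2 and Hnrnpf in each library (points) with the mean and SD of each group of 3 (bars). Hnrnph1, Hnrnph3 and Hnrnpa1 are higher in every BAL101553 library than in any control library, Hnrnpf is lower in every one, and Hnrnph2 overlaps.

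The next 3 members by p did not pass. Srsf3, the smallest SR protein, which also links splicing to export, was at 293, 292 and 278 CPM in control and 231, 247 and 237 CPM in BAL101553 tumors. Its fold change of -0.27 (SE 0.0816, adjusted p = 0.0632) passed with DESeq2 and with all 9 libraries in one model. Hnrnpab was at 455, 498 and 516 CPM in control and 410, 408 and 364 CPM in BAL101553 tumors, and with a fold change of -0.31 (SE 0.095, adjusted p = 0.0645) it passed in the same settings. Srsf11, an atypical SR protein found in neural exon programs, was at 76.5, 90.8 and 90.1 CPM and at 115, 104 and 98.8 CPM, a fold change of 0.31 (SE 0.102, adjusted p = 0.0749) that passed with library totals and with all 9 libraries in one model. In these 3 genes the libraries of the groups did not overlap.

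By subfamily, none of the 8 classical SR proteins was called by edgeR, where 2 were higher and 1 lower at an unadjusted p under 0.05 and DESeq2 called 1 lower. They ranged from Srsf3 at -0.27 to Srsf5, a regulator that responds to growth signals, at 0.33 (adjusted p = 0.116). Of the divergent SR proteins, Srsf10 (0.18) and Srsf11 were tested and not called, with 1 higher at an unadjusted p under 0.05 and none by DESeq2. In the hnRNP A/B and D group 1 of 7 was called and in the F/H family 2 of 4, beside 14.7% of all genes tested. In the C, M and R group, the K and L group and the U group none of 3 each was called. There edgeR also gave none at an unadjusted p under 0.05 and DESeq2 none. Hnrnpk was at 859, 848 and 844 CPM in control and 719, 795 and 649 CPM in BAL101553 tumors (-0.23, adjusted p = 0.154), and Hnrnpu, a scaffold of chromatin, had a fold change of 0.07.

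What the members share beyond their names was read from the annotation. A transcript marked for nonsense-mediated decay was annotated in 19 of 31 members (61.3%), in 9 of 11 Srsf genes (81.8%) and in 10 of 20 Hnrnp genes, against 28.0% of 12149 matched genes tested. A retained-intron transcript was annotated in 22 of 31 members (71.0%) against 58.1%. Members had a median of 7 annotated transcripts against 5 for the matched genes tested, and the shares were not adjusted for this. Of the called members, Hnrnph1 had neither kind, Hnrnpa1 had a decay transcript and Hnrnph3 had both. The counts are per gene, so productive and decay transcripts of these genes were not told apart.

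Genes that work with these families were followed through lists. Of 23 tested SR-related proteins, which carry arginine and serine repeats but are not Srsf genes, 8 were higher in BAL101553 tumors (34.8%) and none lower (none at an unadjusted p under 0.05, and none by DESeq2), with a median of 0.20, beside the 8.64% of all genes called higher. Acin1, a part of splicing and apoptosis complexes, had a fold change of 0.61 (SE 0.079, adjusted p = 0.00742). Srrm2, a scaffold of nuclear speckles, had 0.55 (adjusted p = 0.0123), Srek1 0.70 (0.014) and Pnn 0.49 (0.0146). The count of 8 became 1 without control 3, 3 without control 1, 4 without BAL101553 1 or BAL101553 3, and 5 without control 2 or BAL101553 2.

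The enzymes that phosphorylate SR proteins gave 3 higher (23.1%) and 1 lower (7.69%) of 13 tested with their phosphatases and import factors, beside 8.64% and 6.09% of all genes. Clk2, a kinase of SR proteins, was at 3.86, 5.68 and 5.6 CPM in control and 9.03, 8.48 and 9.10 CPM in BAL101553 tumors (0.82, SE 0.192, adjusted p = 0.0313). Clk1 (0.53, adjusted p = 0.033) and Prpf4b (0.53, adjusted p = 0.0141) were also higher, and the phosphatase subunit Ppp1ca was lower (-0.48, adjusted p = 0.0494). These 4 calls became 0 without control 3, 1 without control 1, control 2 or BAL101553 3, and 2 without BAL101553 1 or BAL101553 2.

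The core spliceosome list had 4 of 41 genes lower (9.76%, beside 6.09% of all genes) and none higher (1 higher and 14 lower at an unadjusted p under 0.05, and none higher and 11 lower by DESeq2), with a median of -0.16. Snrpd2, a Sm protein, fell by 0.72 on the log2 scale (adjusted p = 0.0144), Sf3b5 by 0.58 (0.0159), Snrpg by 0.38 (0.041) and Sf3b4 by 0.36 (0.0352). Without control 1 or control 3 none of the 41 was called, and without BAL101553 3 1 was and without control 2 2 were. Among 17 hnRNPs with other symbols Taf15, an RNA-binding protein of the transcription machinery, rose (0.50, adjusted p = 0.0242) and no other was called (1 higher and 2 lower at an unadjusted p under 0.05 and by DESeq2). Its call was lost without control 1 (adjusted p = 0.0848), control 2 (0.0654), control 3 (0.0644) or BAL101553 3 (0.0708). Of 10 decay factors the kinase Smg1 was higher (0.62, adjusted p = 0.0184), a call lost without control 1 (0.0631) or control 3 (0.0767). Of 14 splicing regulators restricted to certain cell types Celf4 (0.87, adjusted p = 0.0156) and Rbfox2 (0.35, adjusted p = 0.029) were higher, but neither was called without control 3 (adjusted p = 0.072 and 0.117). Rbfox2 was called only without BAL101553 2 (0.0367) when single libraries were left out.

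Of 4 nuclear-retained RNAs 2 were called, and Meg3 (0.77, adjusted p = 0.528) was not. Malat1 and Neat1, long RNAs kept in the nucleus, rose by 2.28 (adjusted p = 0.0043) and 1.45 (adjusted p = 0.00995) on the log2 scale, and the 4 summed to 64.9 to 87.6 CPM in control, 264 to 392 in BAL101553 tumors and 1230 to 1450 in the libraries labelled astrocytes. Their part in the changes of the members, like that of the astrocyte, endothelial and microglial markers given above, was not tested. Markers of dividing cells overlapped between tumor groups, at a summed 1150 to 1210 and 1080 to 1310 CPM. Of these 14 genes edgeR called 1 higher (7.14%, near the 8.64% of all genes), the checkpoint kinase Bub1b (0.37, adjusted p = 0.0465). DESeq2 called 3 higher and 1 lower. The Bub1b call held without BAL101553 1 (adjusted p = 0.0468) and was lost without any other single library (0.0745 to 0.141).

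The second comparison set the libraries labelled astrocytes against BAL101553 tumors, which share the labelled treatment and differ in labelled cell type. It uses the same BAL101553 libraries as the first. Of 31 members, 25 were called (80.6%), 3 of them higher and 22 lower, whereas 85.1% of 15314 genes tested were called, 46.3% higher and 38.9% lower. The share called was near the background, and the share called lower was 71.0%. Srsf12 passed the filter on low counts only through the libraries labelled astrocytes, so it had to differ. Of the 30 members that also passed between tumor groups, 2 were higher and 22 lower (73.3%), beside 4390 higher and 5954 lower (47.4%) of 12550 genes that did, with medians of -0.48 and -0.24, a count chosen after the values were seen. The median of the members was -0.41 on the log2 scale, also with Srsf12 at its bound, against 0.18 for all genes, and the latter became 0.39 when library totals replaced TMM. Libraries did not overlap for 24 members that were lower and 3 that were higher, where 40.2% of all genes tested were lower and 47.6% higher without overlap. Hnrnpa2b1, Hnrnpa3, Hnrnpdl, Hnrnpr, Srsf4 and Srsf11 were not called, with fold changes between -0.24 and 0.12. Without single libraries 21 to 26 members were called, and Hnrnpc, Hnrnph1, Hnrnpul1 and Srsf7 were not called without astrocytes 1. Library totals in place of TMM gave 20 members called, 16 lower and 4 higher, where 84.6% of all genes were called. With at least 10 counts in every library 18 were called, 15 lower and 3 higher, beside 82.4% of all genes.

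**Figure D4:**
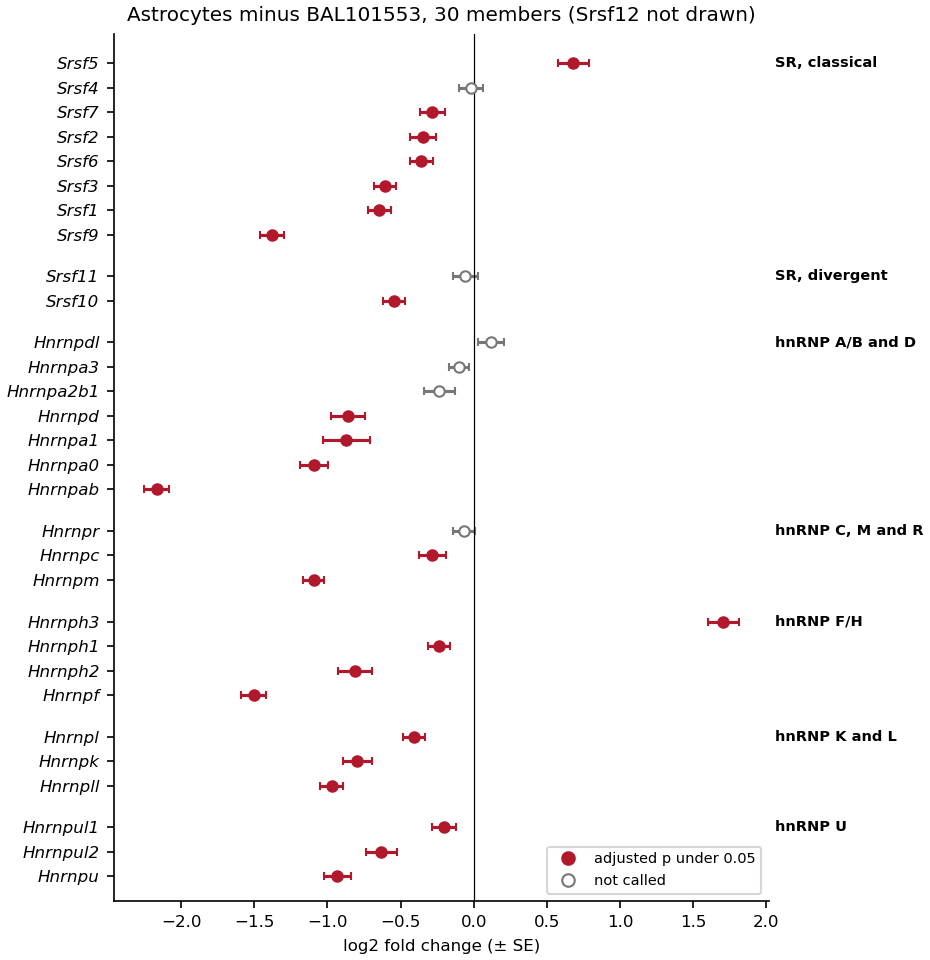
Log2 fold change of the libraries labelled astrocytes over BAL101553 with its SE for 30 members, grouped by subfamily; filled points passed an adjusted p of 0.05. Most points lie left of 0, down to Hnrnpab at -2.17, and Hnrnph3 at 1.71 and Srsf5 at 0.68 stand to the right.

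Hnrnpab had the largest fall among the members called, to 86.1, 85.0 and 89.0 CPM, a fold change of -2.17 (SE 0.086, adjusted p = 1.68e-07). Hnrnpf was at 201, 197 and 218 CPM (-1.51, adjusted p = 1.01e-06). Srsf9, a classical SR protein with a short tail, was at 70.0, 78.2 and 73.8 CPM in BAL101553 tumors and 27.4, 27.0 and 29.9 CPM in the libraries labelled astrocytes (-1.38, adjusted p = 1.45e-06). None of the astrocyte values reached those of a tumor library in these genes.

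Hnrnpm, which binds guanine- and uracil-rich introns, went from 249, 260 and 252 CPM to 120, 118 and 114 CPM (-1.09, adjusted p = 2.66e-06). Hnrnpa0, an intronless gene of the A/B group, went from 136, 160 and 129 CPM to 68.5, 63.0 and 66.1 CPM (-1.09, adjusted p = 1.2e-05). Hnrnpk, at 410, 418 and 405 CPM, fell as well (-0.79, adjusted p = 0.000103). Again the groups stood apart in each gene.

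The 3 members that were higher belong to different subfamilies. Srsf5 was at 157, 177 and 198 CPM in BAL101553 tumors and 266, 291 and 286 CPM in the libraries labelled astrocytes (0.68, SE 0.107, adjusted p = 0.000422). Hnrnph3, at 52.3, 53.4 and 57.2 CPM, exceeded BAL101553 tumors by 1.71 on the log2 scale (SE 0.107, adjusted p = 1.8e-06). Srsf12, a divergent SR protein that represses splicing, had 191, 156 and 88 counts in the libraries labelled astrocytes, 0 in every BAL101553 library and 1, 0 and 0 in control. Against a floor of 3 counts per library its mean of 4.86 CPM was at least 41.1-fold higher than in BAL101553 tumors. The marker sums of astrocytes, oligodendrocytes and microglia given above were higher in the same libraries as these 3 genes. Of 5 endothelial markers 3 were higher there too, among them Cldn5 (63.7, 59.6 and 60.6 CPM against 0.889, 0.75 and 0.795), while their sum was lower at 164 to 191 CPM. The part of these cell types was not tested.

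Hnrnph1 took opposite sides against the tumor groups. It was lower in the libraries labelled astrocytes than in BAL101553 tumors (-0.24, adjusted p = 0.021) and higher than in control tumors (0.46, adjusted p = 0.000503). The first call was lost with RLE scaling (adjusted p = 0.0577), with library totals (0.709), with at least 10 counts in every library (0.884), and without astrocytes 1 (0.075), astrocytes 2 (0.052) or astrocytes 3 (0.0669). Hnrnpa1 was lower than in BAL101553 tumors (-0.87, adjusted p = 0.00106), and its fold change against control was -0.15 (adjusted p = 0.396). Against control, 6 members were called higher and 19 lower, with a median of -0.43, where 88.3% of 15207 genes were called, 48.8% higher and 39.5% lower, with a median of 0.25.

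**Figure D5:**
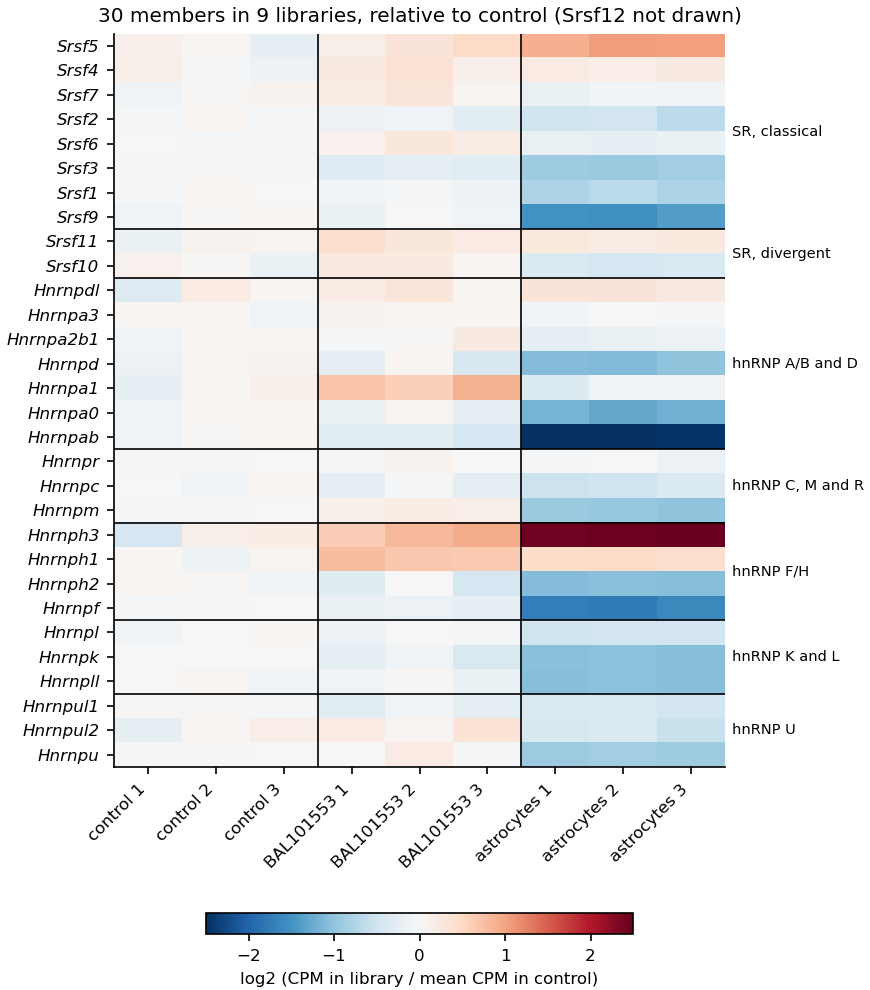
Level of 30 members in each of the 9 libraries as the log2 of CPM over the mean CPM of control, rows grouped by subfamily, columns by group. The astrocyte columns are blue for most hnRNPs and red for Hnrnph3, Hnrnph1 and Srsf5, and the BAL101553 columns are close to control except for Hnrnpa1, Hnrnph1 and Hnrnph3.

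By subfamily, 6 of 8 classical SR proteins were lower and 1 higher, and the divergent SR proteins had 1 lower and 1 higher of 3. In the A/B and D group 4 of 7 were lower, in the C, M and R group 2 of 3, and in the K and L and the U groups all 3 each. No member of these 4 groups was higher in the main edgeR fit, at an unadjusted p under 0.05 or by DESeq2. Hnrnpdl, of the A/B and D group, was called higher with library totals and with at least 10 counts in every library. Against control Hnrnpdl was also called higher (0.30, adjusted p = 0.048). The F/H family had 3 lower (75.0%) and 1 higher (25.0%). Over all genes tested, 85.1% were called, 46.3% higher and 38.9% lower. Among genes that passed the filter in both comparisons, 47.4% were lower.

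Partner genes were lower for the most part. Of 41 core spliceosome genes 39 were lower and 1 higher, with a median of -0.92, among them Snrpd1 (-1.74) and the branch-site factor Sf3b3 (-2.29). Of 17 hnRNPs with other symbols 11 were lower and 2 higher. Ptbp1, a silencer of neural exons, was at 462, 482 and 382 CPM in BAL101553 tumors and 98.9, 97.5 and 109 CPM in the libraries labelled astrocytes (-2.10, adjusted p = 7.05e-07), and Syncrip (-2.05) and the cytosine binder Pcbp2 (-1.46) were lower too. SR-related proteins had 12 lower (52.2%) and 4 higher of 23. Their share lower and their median of -0.27 were near the 47.4% and -0.24 of the 12550 genes that passed the filter in both comparisons. Over all 15314 genes tested here, 38.9% were lower, with a median of 0.18. Rnps1 was at -1.30, Cherp at -1.06 and Luc7l3 at 1.23. Of 10 decay factors 8 were lower (80.0%) and 1 higher, among the lower Smg8 (-1.06), Upf2 (-0.75) and the helicase Upf1 (-0.64).

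The kinase list was split, with 6 higher and 4 lower of the 13 that also passed the filter between tumor groups, which Srpk3 did not. Of all 12550 genes that passed both filters, 4390 were higher and 5954 lower (47.4%). The kinase list thus had a larger share higher and a smaller share lower than all genes. Srpk1, which phosphorylates SR proteins in the cytoplasm, fell by 1.58 on the log2 scale (adjusted p = 4.14e-07), whereas Clk4 rose by 1.55 (adjusted p = 8.03e-07) and Srpk3 was at 34.6, 38.5 and 29.1 CPM against 0.0342, 0.0395 and 0.0884 CPM in BAL101553 tumors. Regulators restricted to certain cell types had 5 higher and 7 lower of the 14 that also passed the filter between tumor groups. Both shares of these regulators were near those of all genes that passed both filters. The other regulators tested, such as Elavl3, passed only through the libraries labelled astrocytes. Nova1 was higher (4.94, adjusted p = 4.53e-08) and Rbfox2 lower (-3.59, adjusted p = 2.22e-08), and Elavl3 was at 239, 265 and 209 CPM against at most 0.0789 CPM. All 14 genes of dividing cells were lower, with a median of -4.56, and summed to 58.5 to 69.3 CPM. Among them were Ccna2 (-4.46), Top2a (-4.52) and Cdc20 (-4.35). Of the nuclear RNAs, Neat1 (3.30), Malat1 (1.43) and Meg3 (6.04) were higher. The part of cell division and of nuclear RNA in the fold changes of the members was not tested.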

How the data were processed

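The study mapped stranded 50-base reads with TopHat and counted them with HTSeq (0.6.1 in the submitters' processing notes) and featureCounts on mm10. The authors deposited raw counts per gene for 9 libraries, grouped here by their labels. The annotation, strand setting and treatment of shared reads are not given in the sources used here. Of the gene names in the deposit, 27 had become dates (up to 0.44% of counts), which stayed in library sizes.

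The test was run with edgeR 4.0.16 under R 4.3.3 (TMM, filterByExpr, quasi-likelihood test on the 2 groups compared, Benjamini-Hochberg adjustment over all genes tested, threshold 0.05, two-sided), checked on simulated data. CPM use TMM over all 9 libraries, and each SE was derived from the fold change and the F statistic. Alternatives used DESeq2 1.42.0, limma 3.58.1 (limma-trend), edgeR's exact test, RLE or total scaling, filters of 1 count in any or 10 in every library, a joint model of the 9 libraries, libraries left out and a replicate block.

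The members and lists were chosen with earlier results of these data known. Values per library are given for members called in BAL101553 against control (filled to 6 by p), for the 5 largest rises and falls in astrocytes, and for the 3 highest and 2 lowest levels per length. From each list, up to 4 and 3 called genes of lowest adjusted p are named for the 2 comparisons; any other gene was chosen after its values were seen, and a gene that this rule names is not reported here. Gene models are GENCODE vM21 (31 of 31 members matched by symbol), and promoters are RefSeq. Counts of replicates differed beyond sampling noise (chi-square per degree of freedom 14.3 to 64.9).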

Additional observations from a re-analysis of the deposited data

How the results depend on the processing

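Between BAL101553 and control, Hnrnph1, Hnrnph3 and Hnrnpa1 were called under each of the 9 alternatives that kept all libraries. DESeq2 called 5 members, 2 of them lower, and all 9 libraries in one model called 6, 2 of them lower. DESeq2 called 2832 genes in all and the joint model 3022, against 1860. The members' median was 0.13 with library totals, where that of all genes was 0.10. When libraries were left out, singly or 1 from each group, members called ranged from 0 to 3, members higher from 0 to 2, members lower from 0 to 1 and the median from -0.023 to 0.075, while genes called in all ranged from 1 to 1757; fewer libraries entered these fits. Left out 1 from each group, 7 of the 9 fits called no member.

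For the libraries labelled astrocytes against BAL101553, the median was -0.357 with RLE scaling or DESeq2, -0.203 with library totals, -0.253 with at least 10 counts in every library, -0.477 over members that also passed the filter between tumor groups (chosen after the data were seen), and -0.469 to -0.391 without single libraries. Against control 6 members were higher, and Hnrnph1 stood at 0.46.

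Replicate numbers are not stated to pair libraries. Same-number correlations were 0.143, 0.0113 and 0.145 for control and BAL101553, where those of different numbers ran from -0.194 to 0.0819. For BAL101553 and astrocytes they were -0.0040, 0.0641 and 0.0576, where those of different numbers ran from -0.0727 to 0.0148. With the replicate block 1371 genes and 3 members, all higher, were called. In that fit Rbfox2 (adjusted p = 0.0641) and Bub1b (adjusted p = 0.0572) were not called. Hnrnpa1, Hnrnph3 and Srsf12 rest on low counts, where depth limits precision.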
